A study of Mus musculus with 12 samples.

Results

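The genes of the mitochondrial ribosome were followed through a map of H3K27ac, a histone mark of active promoters and enhancers, in the regenerating liver of wild-type and Cox10-/- mice. Members were all genes of the deposited table whose symbol begins with Mrpl or Mrps followed by a digit. They were 66 of 11240 named genes and held 114 of 36387 acetylated regions. Large-subunit names (Mrpl) accounted for 41 genes with 80 regions, and small-subunit names (Mrps) for 25 genes with 34 regions. All 66 had a region that the deposited annotation places within 1 kb of a start of transcription. The same held for 9663 genes of the whole table, called promoter genes here. Where a gene had several such regions, the one with the highest mean signal over all 6 H3K27ac libraries, knockout included, stood for it.

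All mice carried a floxed allele of Cox10, which encodes the farnesyltransferase that makes the heme A precursor needed by cytochrome c oxidase. They received AAV8-GFP or AAV8-Cre by injection, underwent removal of 70% of the liver 4 weeks later, and gave liver on day 2 after surgery. The labels name the groups wild-type and Cox10-/-. The design text gives AAV8-Cre as the agent of recombination, so AAV8-GFP is taken as the virus of the wild-type group, which the labels do not spell out. Each genotype had 3 H3K27ac libraries. The 6 input libraries were not analysed here. The labels give neither strain nor age nor the promoter that drives Cre. The labels do not say whether replicates were separate animals, so p-values measure the spread between these libraries. Chromatin came from whole minced liver, in which a loss of signal per cell and a loss of the cells that carry it cannot be told apart.

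Mitochondrial ribosomes translate the few messenger RNAs of the mitochondrial genome, whose protein products are subunits of the respiratory chain and of ATP synthase. All of their protein components are encoded in the nucleus, made in the cytosol and imported, and are joined in the organelle to ribosomal RNAs copied from mitochondrial DNA. The large subunit forms peptide bonds and releases the chain through an exit tunnel, while the small subunit binds the messenger RNA and decodes it. Hepatocytes are rich in mitochondria and depend on this system to keep up oxidative phosphorylation.

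Values are the deposited signal per region, which is the number of reads divided by a size factor of each library; the reads were recovered and came to between 3282878 and 4187377 per library. Reads differed between libraries of 1 genotype by a chi-square of 1.06 to 1.19 per degree of freedom, more than sampling noise over this many regions, and between genotypes by 10.2 to 10.6. The table assigned 1 intronic region to Cox10 (chromosome 11, 63977336 to 63977787, mm10). Signal there was low in the wild-type libraries, at 14.6, 17.8 and 12.8, and higher in knockout, at 60.3, 46.0 and 65.9, a log2 change of 1.86 (SE 0.24); acetylation of an intron does not test the deletion. All 8 promoters of the hepatocyte marker list were lower in knockout, as were 93.9% of promoter genes by the test given below. The median log2 change was -1.65 for these markers and -0.82 for all promoter genes. The summed signal of the 8 ran from 5456 to 5613 in wild type and from 1582 to 1870 in knockout. Of the 7 macrophage and Kupffer cell markers, 2 had a promoter region, summing to 173 to 193 in wild type and 317 to 382 in knockout; Cd14 rose from 140 to 314 (log2 change 1.15, SE 0.10), while Cd68 went from 41.7 to 38.4 with overlapping groups and did not pass. Sox9, the only bile duct marker of 5 with a promoter region, gave 52.0 to 67.7 and 43.9 to 62.1, and none of the endothelial, stellate or lymphocyte markers had one. The part of these shifts in the results that follow was not tested.

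Acetylation fell at the promoters of all 66 mitochondrial ribosomal protein genes in the Cox10-/- liver, and rose at none. By the same test 93.9% of promoter genes fell and 0.807% rose (limma on log2 of signal plus 1, Benjamini-Hochberg adjusted p under 0.05), a background near the members' own share. The median log2 change of the members was -0.83, a 1.77-fold lower signal, and that of all promoter genes was -0.82. In 65 of 66 members every knockout library lay below every wild-type library, against 93.0% of promoter genes, and the exception was Mrps25. The members' changes spanned less than those of promoters at large. The interquartile range of the members was -0.98 to -0.65, and that of all promoter genes -1.10 to -0.61. The SD was 0.27 over members and 0.53 over all promoter genes. Promoter genes outside the family with wild-type signal between the members' quartiles (109 to 196) had a median of -0.79 and an SD of 0.47. Within 0.5 log2 units of their own median lay 61 members (92.4%) and 78.5% of promoter genes. Lists of related genes described below had SDs near that of the members. It was 0.22 for genes with complex I names and for translation factors, and 0.26 for assembly factors and for mitochondrial tRNA synthetases. Mitochondrial transcription and RNA processing had 0.31, other mitoribosomal proteins 0.16 and cytosolic ribosomal proteins 0.33. The cytosolic list holds an outlier, Rps23rg1 (-2.73), and its interquartile range was 0.23 wide, narrower than the members' 0.32. These spreads are a description, with no test. In the authors' deposited table the median log2 fold change of the same regions was -0.835, and 64 of the 66 had an adjusted p under 0.05; those of Mrpl23 (0.102) and Mrps25 (0.169) did not.

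Because almost the whole table fell, members were also read against the typical promoter. The median promoter gene of a library dropped by 0.87 on the log2 scale between genotypes, and each library was centred on its own median. On that scale 9 of 66 members lay lower, having fallen further than the typical promoter, and 12 lay higher, having fallen less; among promoter genes 23.8% lay lower and 26.4% higher. The 9 were 8 large-subunit genes (Mrpl34, Mrpl18, Mrpl12, Mrpl22, Mrpl50, Mrpl14, Mrpl49 and Mrpl57) and 1 small-subunit gene (Mrps21). The 12 were Mrpl23, Mrpl44, Mrpl16, Mrpl45, Mrpl13, Mrpl52 and Mrpl36 of the large subunit, and Mrps18b, Mrps25, Mrps23, Mrps28 and Mrps16 of the small subunit. These calls are for the 1 region that stood for each gene. Of the 12, Mrpl36, Mrps23, Mrpl45 and Mrpl23 had another region within 1 kb of a start. Those regions changed by -1.31, -0.85, -0.73 and -1.24 on the deposited scale, against -0.58, -0.53, -0.52 and -0.24. The count on the centred scale depends on the centre: with the median of all regions as the centre, 5 members lay lower and 30 higher. The summed signal of the members was 0.497% ± 0.0075 of all promoter signal in wild type and 0.513% ± 0.0029 in knockout (SD, n = 3).

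**Figure D1:**
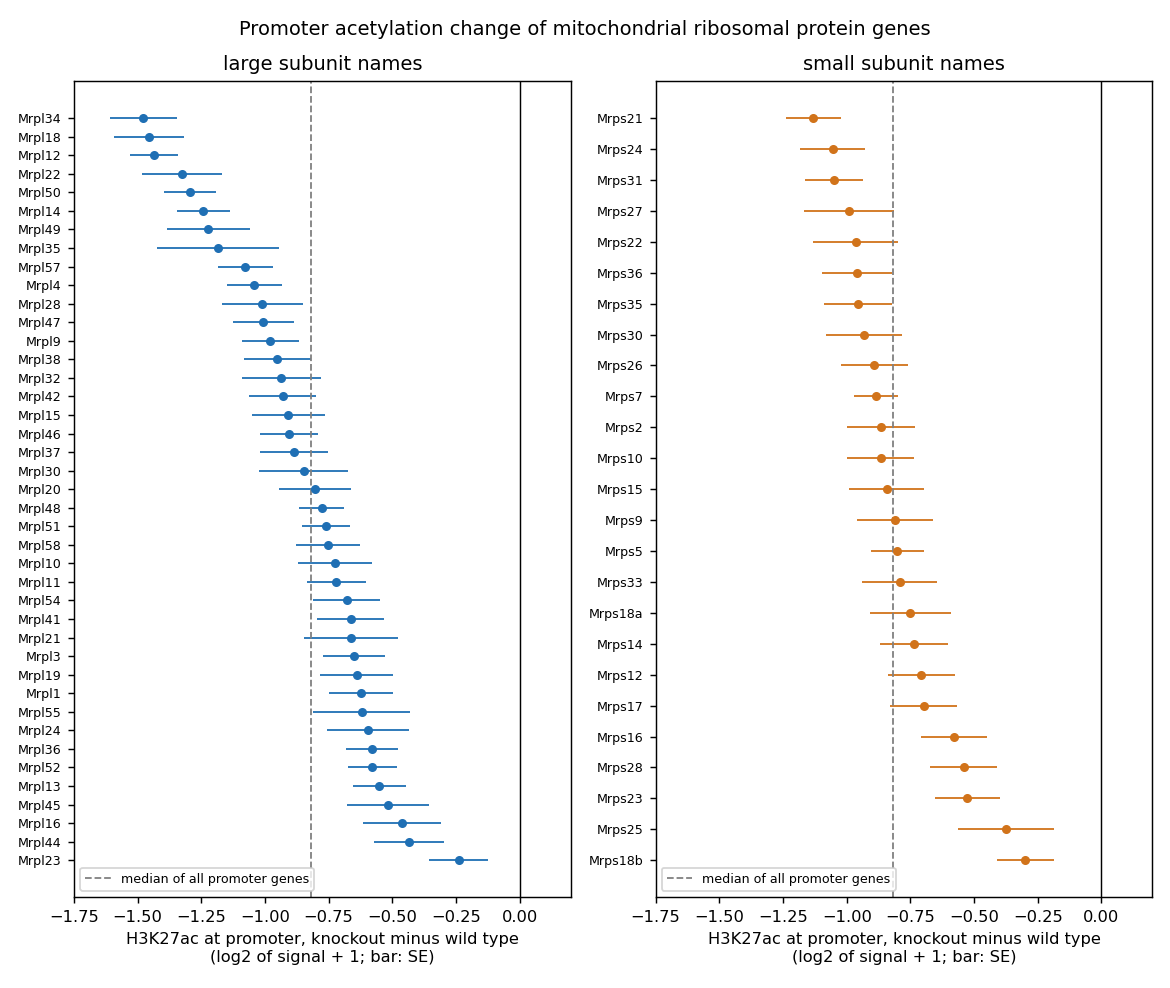
Change in promoter H3K27ac between genotypes for each of the 41 Mrpl genes (left) and 25 Mrps genes (right). Points are knockout minus wild type in log2 of signal plus 1, bars are the standard error of the limma fit, and the dashed line is the median of all promoter genes at -0.82; all 66 points lie below 0, from -1.48 for Mrpl34 to -0.24 for Mrpl23.

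The deepest falls were in the large subunit. Mrpl34, which encodes a small basic protein of the bacterial L34 family (promoter region on chromosome 8, 71465002 to 71465554), held 168, 168 and 212 in wild type and 60.3, 70.2 and 63.6 in knockout. Its knockout values lay close together and far below the lowest wild-type value. The log2 change was -1.48 (SE 0.13, limma, adjusted p = 1.69e-28), and -0.61 against the typical promoter (adjusted p = 4.02e-06). Mrpl18, a member of the uL18 family linked to the handling of 5S ribosomal RNA in mitochondria (chromosome 17, 12915519 to 12916062), had 174, 166 and 147 in wild type and 69.7, 50.8 and 56.1 in knockout, with no overlap. Its log2 change was -1.46 (SE 0.14).

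Mrpl12 had the highest wild-type promoter signal of the large-subunit genes and a fall nearly as deep as those of Mrpl34 and Mrpl18. It encodes the stalk protein that recruits translation factors to the ribosome, and is also known to bind the mitochondrial RNA polymerase. The promoter region (chromosome 11, 120484628 to 120485895) held 503, 523 and 472 in wild type and 194, 194 and 165 in knockout. The libraries of each genotype lay within a narrow band and the bands were far apart, with a log2 change of -1.44 (SE 0.093, limma, adjusted p = 6.81e-52). The stalk proteins Mrpl10 (-0.73, SE 0.15) and Mrpl11 (-0.72, SE 0.12), chosen after their values were seen, had centred changes of 0.14 and 0.15, neither of which passed.

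Mrpl22 had the fourth deepest fall and Mrpl23 the smallest. Mrpl22 encodes a protein whose loop reaches into the tunnel, and had 110, 107 and 120 in wild type against 37.4, 48.4 and 47.7 in knockout, a log2 change of -1.33 (SE 0.16). Mrpl23 encodes a protein at the tunnel's mouth and went from 177, 163 and 165 to 144, 148 and 134. Its groups (chromosome 7, 142533100 to 142533834) came close without overlapping, and the log2 change of -0.24 (SE 0.12) had an adjusted p of 0.0392 in the limma fit. That call was lost without wild-type library 1 (adjusted p = 0.121), 2 (0.0513) or 3 (0.0563) and without knockout library 1 (0.0524) or 3 (0.0986). A weaker region of Mrpl23 at a further annotated start (chromosome 7, 142536244 to 142536442) held 47.9, 30.1 and 43.5 in wild type and 10.2, 16.1 and 25.8 in knockout. Its groups did not overlap, and it changed by -1.24 (SE 0.27), beside -0.24 at the main promoter region. Mrpl45, which ties the ribosome to the inner membrane next to the tunnel exit, fell from 91.8, 79.4 and 74.1 to 62.9, 60.5 and 47.7, a log2 change of -0.52 (SE 0.16). Mrpl22 lay below the typical promoter and Mrpl23 and Mrpl45 above it (centred log2 changes -0.46, 0.63 and 0.35).

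Mrpl44 and Mrpl16 made up the rest of the 4 smallest falls of the large subunit. Mrpl44, a protein with the fold of a ribonuclease III, gave 104, 125 and 114 in wild type and 90.9, 82.3 and 78.8 in knockout, a log2 change of -0.44 (SE 0.14). Mrpl16, which sits near the peptidyl transferase centre, gave 78.5, 82.2 and 104 in wild type and 63.7, 57.3 and 68.9 in knockout, a log2 change of -0.46 (SE 0.15). In both genes the lowest wild-type library was above the highest knockout library by a small margin, and Mrpl16 lost its call without wild-type library 3 (adjusted p = 0.0561, limma).

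Small-subunit genes fell within a tighter band. The deepest was Mrps21, a relative of bacterial S21 (chromosome 3, 95871029 to 95872018), with 294, 266 and 263 in wild type and 135, 123 and 116 in knockout, well apart. Its log2 change was -1.13 (SE 0.11, limma, adjusted p = 1.06e-24), and it was the only small-subunit gene that passed as lower against the typical promoter (centred log2 change -0.27). Mrps24, which lines the entry channel for messenger RNA, went from 168, 170 and 171 to 82.4, 88.8 and 72.7, a log2 change of -1.06 (SE 0.13). Mrps31 (-1.05, SE 0.11) and Mrps27 (-0.99, SE 0.18), the latter a protein with pentatricopeptide repeats, followed.

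At the other end of the small subunit stood Mrps18b. It is one of 3 mammalian relatives of bacterial S18, and (chromosome 17, 35915511 to 35916348) held 205, 186 and 162 in wild type and 156, 159 and 134 in knockout. The lowest wild-type library was only just above the highest knockout library, and the log2 change was -0.30 (SE 0.11, limma, adjusted p = 0.00855). Without wild-type library 1 the adjusted p was 0.0872, and without knockout library 3 it was 0.0537. Mrps25 was the sole member with overlapping groups, at 65.2, 54.8 and 49.8 in wild type and 49.3, 50.04 and 32.6 in knockout; knockout library 2 exceeded wild-type library 3. Its log2 change of -0.37 (SE 0.19) passed narrowly, with an adjusted p of 0.0489 in the limma fit. It did not pass without wild-type library 1 (0.211) or 2 (0.0625) or without knockout library 3 (0.391). Mrps23 (-0.53, SE 0.13) and Mrps28 (-0.54, SE 0.13) were the other small-subunit genes with the smallest falls.

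**Figure D2:**
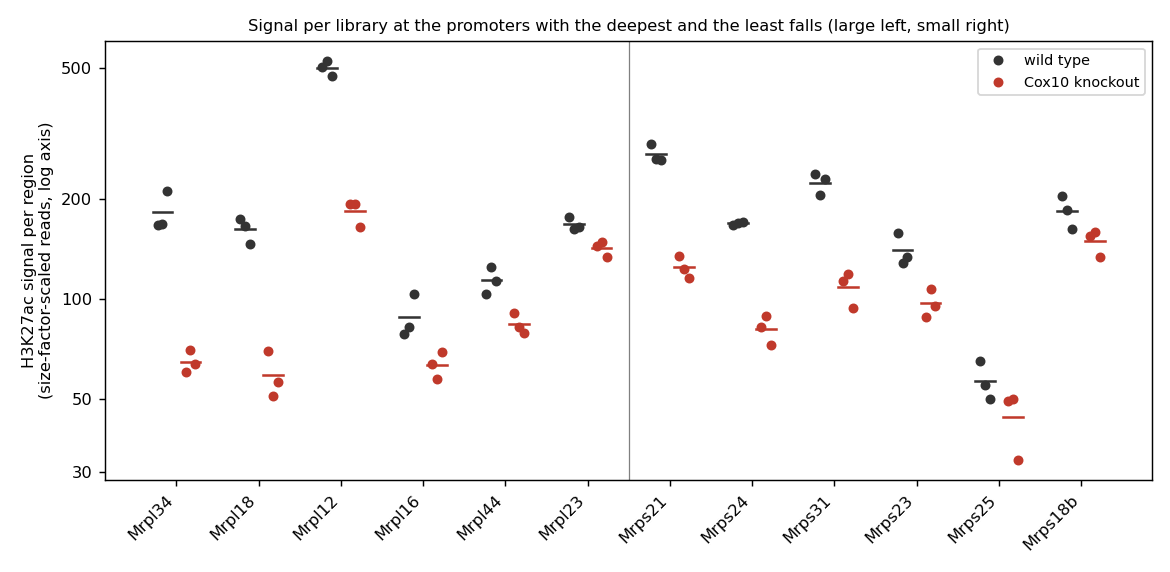
Signal in each of the 3 wild-type (dark) and 3 knockout (red) libraries at the promoters of the 3 members with the deepest and the 3 with the smallest falls in each subunit, on a log axis, with horizontal bars for group means. Only Mrps25 shows an overlap of the groups, and Mrpl12 stands out by its level, from 499 in wild type to 184 in knockout.

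Taken by subunit, the medians were close: -0.81 for the 41 Mrpl genes and -0.84 for the 25 Mrps genes. The difference of the medians, large minus small, was 0.038, while the difference of the means had the other sign at -0.057. With 1 library left out, the difference of the medians ran from -0.0077 (without wild-type library 1) to 0.10 (without wild-type library 3). The large subunit spread more widely, with an SD of 0.30 against 0.21 and a range from -1.48 to -0.24 against -1.13 to -0.30. The median promoter signal of the large subunit exceeded that of the small subunit by 0.15 ± 0.038 log2 units in the wild-type libraries and by 0.062 ± 0.033 in the knockout libraries (SD, n = 3). In every library the large-subunit median was the higher one, at 0.12, 0.19 and 0.14 in wild type and 0.10, 0.044 and 0.042 in knockout. Gene names do not fully follow the structure of the particle. Mrps18a (-0.75, SE 0.16) and Mrps30 (-0.93, SE 0.15) are now known to sit in the large subunit, and Mrps36 (-0.96, SE 0.14) is known as a part of the 2-oxoglutarate dehydrogenase complex. With the genes placed by structure, the large-minus-small level was 0.028 ± 0.13 in wild type and -0.056 ± 0.079 in knockout, so that the order of the subunits no longer held in all libraries.

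Before any change between genotypes, member promoters were compact. Their median wild-type signal was 141 against 183 for all promoter genes, and 46 of the 66 lay below that latter value. The median region was 502 bases long for members and 651 for all promoter genes, and signal per kb was close, at 286 and 278. Per kb, the highest wild-type levels of the large subunit belonged to Mrpl54 (461), Mrpl48 (402) and Mrpl12 (394). In the small subunit they belonged to Mrps28 (432), Mrps5 (364) and Mrps35 (357). Mrps7, which lies where the messenger RNA leaves the particle, had the highest total, with 576, 581 and 574 in wild type and 357, 315 and 270 in knockout. Its groups were far apart, with a log2 change of -0.88 (SE 0.085) and a centred change of -0.019, which did not pass. Across the 66 genes, wild-type level and change had a Spearman rho of -0.22, and across all promoter genes it was -0.18; genes share libraries and depth, so this is only a description.

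The acetylated region mostly began just inside the gene. RefSeq starts on GRCm38.p6, the assembly called mm10, lay within 1 kb of the promoter region for 57 members. The region lay wholly downstream of the start in 35 of them, over the start in 18 and wholly upstream in 4 (Mrpl1, Mrpl41, Mrpl45 and Mrpl47). For the downstream ones the near edge was at a median of 53 bases and the far edge at 480. Of all promoter genes with such a start, 60.3% had the region downstream, 30.9% over the start and 8.81% upstream, against 61.4%, 31.6% and 7.02% of members. By subunit, 18 of 23 small-subunit genes and 17 of 34 large-subunit genes had a downstream region. The median change was -0.85 for members with a downstream region and -0.79 for those with a region over the start.

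**Figure D3:**
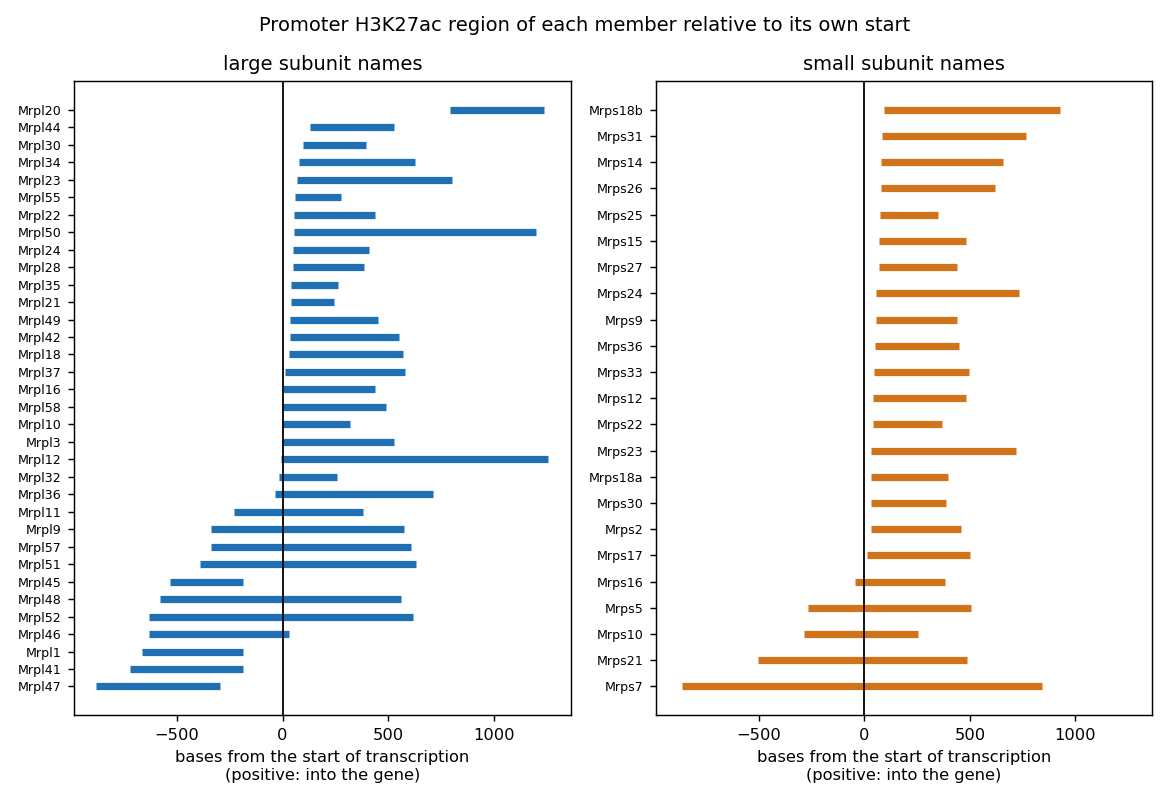
Position of the promoter H3K27ac region of 57 members relative to the RefSeq start of the gene, in bases along the direction of transcription, with Mrpl genes left and Mrps genes right. Each bar is 1 region; 35 bars start to the right of 0, inside the gene, 18 cross it and 4 end before it.

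The bases before the start are shown for the members with the deepest and the smallest fall of each subunit. They were taken among those with no other coding start listed in that window. Each stretch is 250 bases from RefSeq, read 5′ to 3′ on the strand of the gene, with matches to 4 motifs in capitals on either strand. The motifs were GCGCANGCG for NRF1, CCGGAAG for ETS factors such as GABPA, AAGATGGCG for YY1 and GGGCGG for SP1, factors known from nuclear genes of mitochondria; none of them contains another. The stretches are, in this order, chr8:71464676-71464925 on the plus strand, chr7:142532782-142533031 on the plus strand, chr3:95871515-95871764 on the minus strand and chr17:35916441-35916690 on the minus strand.
Mrpl34: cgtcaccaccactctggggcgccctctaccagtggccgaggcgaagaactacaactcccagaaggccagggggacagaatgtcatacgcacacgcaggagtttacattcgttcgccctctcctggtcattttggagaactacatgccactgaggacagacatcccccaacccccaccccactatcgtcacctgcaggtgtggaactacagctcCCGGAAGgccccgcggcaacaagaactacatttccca
Mrpl23: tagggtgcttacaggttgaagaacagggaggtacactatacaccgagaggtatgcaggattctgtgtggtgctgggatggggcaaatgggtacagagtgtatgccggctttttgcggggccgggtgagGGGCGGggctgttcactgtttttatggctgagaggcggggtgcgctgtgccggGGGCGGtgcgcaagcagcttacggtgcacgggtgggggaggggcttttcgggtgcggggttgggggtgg
Mrps21: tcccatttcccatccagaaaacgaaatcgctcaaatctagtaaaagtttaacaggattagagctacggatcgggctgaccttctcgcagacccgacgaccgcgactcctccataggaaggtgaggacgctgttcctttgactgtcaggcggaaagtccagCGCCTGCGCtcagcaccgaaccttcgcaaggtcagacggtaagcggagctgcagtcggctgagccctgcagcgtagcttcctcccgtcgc
Mrps18b: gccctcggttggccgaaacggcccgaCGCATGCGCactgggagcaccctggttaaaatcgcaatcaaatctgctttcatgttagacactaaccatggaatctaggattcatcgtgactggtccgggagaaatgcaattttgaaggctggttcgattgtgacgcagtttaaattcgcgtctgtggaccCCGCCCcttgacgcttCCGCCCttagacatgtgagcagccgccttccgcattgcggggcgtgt
Mrpl34, with the deepest fall, showed an ETS match shortly before the start, and Mrpl23, with the smallest, 2 SP1 matches. Mrps21 and Mrps18b, at opposite ends of the small subunit, both held an NRF1 match in this window.

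Promoter sequences, each 300 bases around a start, were found for 58 members. They include Mrpl14, with NRF1 and SP1 matches, whose promoter region lay 8.73 kb from that start. The NRF1 motif stood in 24.1% of them, in 15.0% of the acetylated promoters with a sequence and in 6.35% of all promoters of the RefSeq table. The ETS motif stood in 32.8%, 19.5% and 9.08%, and the YY1 motif in 12.1%, 3.44% and 1.49%. SP1 went the other way, at 46.6% of members and 66.1% of acetylated promoters, with 35.6% of all promoters. The 14 members with an NRF1 match, among them Mrpl12, Mrpl22, Mrps21, Mrpl44 and Mrps18b, had a median change of -0.91, and those without had -0.80, whereas over all promoter genes both values were -0.82. The 19 with an ETS match had -0.76 and those without -0.85, beside -0.77 and -0.84 over all promoter genes. For YY1 the members' medians were -0.93 and -0.81, and both were -0.82 over all promoter genes. For SP1 they were -0.84 and -0.81, beside -0.80 and -0.86. The 7 with a YY1 match were Mrpl42, Mrps24, Mrpl36, Mrps27, Mrps18a, Mrpl37 and Mrpl35, and their changes ran from -0.58 (Mrpl36) to -1.18 (Mrpl35). A match is a run of letters and not a measured site of binding.

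Many members share their promoter with a neighbour. Another listed coding gene started within 1 kb of the promoter region of 18 members (27.3%), against 18.4% of promoter genes. These were 13 of the large and 5 of the small subunit. The list of starts has gaps, holding the gene's own start within 1 kb for 57 of 66 members and 6939 of 9663 promoter genes. The counts and shares are therefore lower bounds. In 17 of the 18 pairs the genes ran back to back in opposite directions, 12 of them with starts at most 250 bases apart, and Mrpl48 and Rab6a were the exception. A shared region cannot be assigned to either gene. Members counted as sharing had a median change of -0.88, and the others had -0.80. Over all promoter genes the values were -0.83 and -0.82. Of the 9 members that fell further than the typical promoter, 4 shared: Mrpl18 with Tcp1, a chaperonin subunit, Mrpl50 with Zfp189, Mrpl49 with Fau, and Mrpl57 with Ska3. Of the 12 that fell less, Mrps18b was counted as sharing, with Ppp1r10. Mrpl13 and Mrps28 of the 12, and Mrpl14 of the 9, had no listed start of their own within 1 kb. The Mrpl13 region overlapped the bodies of Mrpl13 and Mtbp. Over all promoter genes the lower call was not more frequent among those that shared, at 19.0% against 24.9% of those that did not, and the higher call stood at 23.3% and 27.1%.

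The bases between the starts are shown for 4 such pairs, 3 of which join genes of mitochondrial gene expression and the other the deepest fall among shared promoters. They are read on the strand of the gene named first, from RefSeq, with the same motifs in capitals. Their positions are, in this order, chr7:78783090-78783130 (minus strand), chr7:28741822-28741967 (minus), chr13:99344679-99344785 (plus) and chr17:12916092-12916328 (minus).
Mrpl46 and Mrps11: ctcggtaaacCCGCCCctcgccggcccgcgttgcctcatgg
Mrps12 and Sars2: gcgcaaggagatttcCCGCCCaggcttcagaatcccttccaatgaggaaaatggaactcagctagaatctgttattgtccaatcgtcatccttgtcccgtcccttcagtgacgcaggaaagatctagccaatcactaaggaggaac
Mrps27 and Ptcd2: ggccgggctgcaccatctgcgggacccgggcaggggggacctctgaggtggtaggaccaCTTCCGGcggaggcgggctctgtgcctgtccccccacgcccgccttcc
Mrpl18 and Tcp1: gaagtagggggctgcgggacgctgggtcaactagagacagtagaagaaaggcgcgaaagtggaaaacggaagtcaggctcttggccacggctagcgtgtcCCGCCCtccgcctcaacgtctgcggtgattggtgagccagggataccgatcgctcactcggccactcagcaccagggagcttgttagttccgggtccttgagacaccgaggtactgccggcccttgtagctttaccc
Mrpl46 and Mrps11 encode a protein of each subunit, and their starts are 42 bases apart. The table names the regions there for Mrpl46 only, and the main one held 239, 222 and 198 in wild type and 114, 125 and 111 in knockout, well apart, with a log2 change of -0.91 (SE 0.11). Mrps12, a protein of the decoding centre, faces Sars2, the seryl-tRNA synthetase of mitochondria. Its own region gave 128, 134 and 162 in wild type and 95.2, 77.5 and 85.6 in knockout, a log2 change of -0.71 (SE 0.13), and the region named for Sars2 gave -0.73 (SE 0.13). Mrps27 faces Ptcd2, a pentatricopeptide protein of mitochondrial RNA processing, whose own region changed by -1.18 (SE 0.13) beside -0.99 (SE 0.18) for Mrps27.

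RefSeq lists 78 coding genes with such names, of which 12 had no region named for them. For 4 of the 12 a start lay within 1 kb of a region named for another gene. Besides Mrps11 these were Mrpl17, beside a region named for Gm15645 that went from 273 ± 21.8 to 174 ± 7.68 (SD, n = 3), Mrpl27, beside one named for Eme1 that went from 242 ± 13.0 to 117 ± 12.8, and Mrpl53, beside one named for Gm42688 that went from 441 ± 45.6 to 214 ± 17.2. The log2 changes of those regions were -0.65, -1.05 and -1.04. Mrpl2, Mrpl33, Mrpl39, Mrpl40, Mrpl43, Mrps6, Mrps18c and Mrps34 were not analysed here. Of these, Mrpl39, Mrpl40 and Mrps6 lie on chromosome 16, from which the deposited table holds no region of any gene. Acetylation of their promoters is thus unknown here.

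Regions away from the start varied more than promoters. Over all 114 regions, 108 fell, 2 rose and 4 did not pass, whereas 87.2% of all 36387 regions fell and 4.46% rose. After centring on the median region of each library, 20 member regions lay lower and 45 higher, against 32.4% and 33.6% of all regions. All 82 regions within 1 kb of a start fell, with a median of -0.87 (SD 0.29), while 92.3% of all regions so placed fell and 1.26% rose, also with a median of -0.87. The other 32 regions belonged to 14 members, 26 of them to the large subunit, and the table assigns them to the nearest gene, which need not be their target. Of these 32 regions, 26 fell and 2 rose, with a median of -1.27, an SD of 1.08 and a range from -2.998 to 1.67. Of all regions of the table away from starts 83.2% fell and 6.96% rose, with a median of -1.28 and an SD of 0.99, so the members' counts and median were near the background.

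The steepest losses stood near Mrpl14 and Mrpl15. Mrpl14, whose protein is the docking site of an assembly factor at the subunit interface, had 6 regions. The one annotated as its promoter lay 8.73 kb from its RefSeq start, and 3 intergenic ones lay 14.1 to 15.8 kb from that start. The strongest of these 3 (chromosome 17, 45701902 to 45702320) went from 82.5 ± 16.4 to 9.37 ± 1.14 (SD, n = 3), a log2 change of -2.998 (SE 0.25). The other 2 changed by -2.88 and -2.70, against -1.24 (SE 0.10) at the region annotated as promoter. An intergenic region named for Mrpl15 went from 91.7 ± 10.0 to 13.2 ± 2.01, a log2 change of -2.71 (SE 0.22). The main promoter region of Mrpl15 went from 121 ± 12.8 to 64.0 ± 2.65, a change of -0.91 (SE 0.14). Other Mrpl15 regions within 1 kb of a start changed by -1.56 and -1.46. In each of these regions the knockout libraries lay far below the wild-type ones.

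Inside genes, regions of Mrpl48 and Mrpl12 also fell by more than the promoter. Mrpl48 has several RefSeq starts, and 2 intronic regions, 27.4 and 28.2 kb from the nearest of them, changed by -2.24 and -2.45. Its main promoter region, at another of these starts, changed by -0.78 (SE 0.090). A region 1.58 kb from the start nearest to it changed by -0.12, which did not pass. A region 1.498 kb into Mrpl12 went from 54.9 ± 7.21 to 8.91 ± 2.59, a log2 change of -2.52 (SE 0.29). Mrpl50 had 5 regions, and all changed by about the same amount, from -1.29 at the promoter to -1.61. Mrpl1 had 7, of which the intronic ones changed by -0.29, -0.71 and 0.19, the last of which did not pass, and the promoter by -0.62. Mrpl45 (4 regions, from -0.34, which did not pass, to -0.73) and Mrpl58 (3 regions, from -0.29 to -0.75) stayed within a narrow range; Mrpl58 encodes a peptidyl-tRNA hydrolase built into the large subunit.

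The 2 regions that rose both belonged to small-subunit genes. An intronic region of Mrps28 (chromosome 3, 8873275 to 8873692) went from 13.7 ± 2.23 in wild type to 46.1 ± 9.06 in knockout (SD, n = 3). The groups did not overlap, and the log2 change was 1.67 (SE 0.27, limma, adjusted p = 4.06e-09), beside -0.54 at the promoter of the same gene. An intergenic region 31.7 kb from the start of Mrps23 (chromosome 11, 88235667 to 88236455) went from 96.9 ± 16.4 to 144 ± 3.09, a log2 change of 0.58 (SE 0.13, adjusted p = 1.32e-05). The main promoter region of Mrps23 changed by -0.53. Mrps33 had 2 intergenic regions whose groups overlapped, with changes of -0.45, which passed, and -0.28, which did not. Mrpl12, Mrpl19, Mrpl23, Mrpl36, Mrpl41, Mrpl46, Mrpl47, Mrps10, Mrps27, Mrps31 and Mrps36 had 2 regions each, all of which fell.

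**Figure D4:**
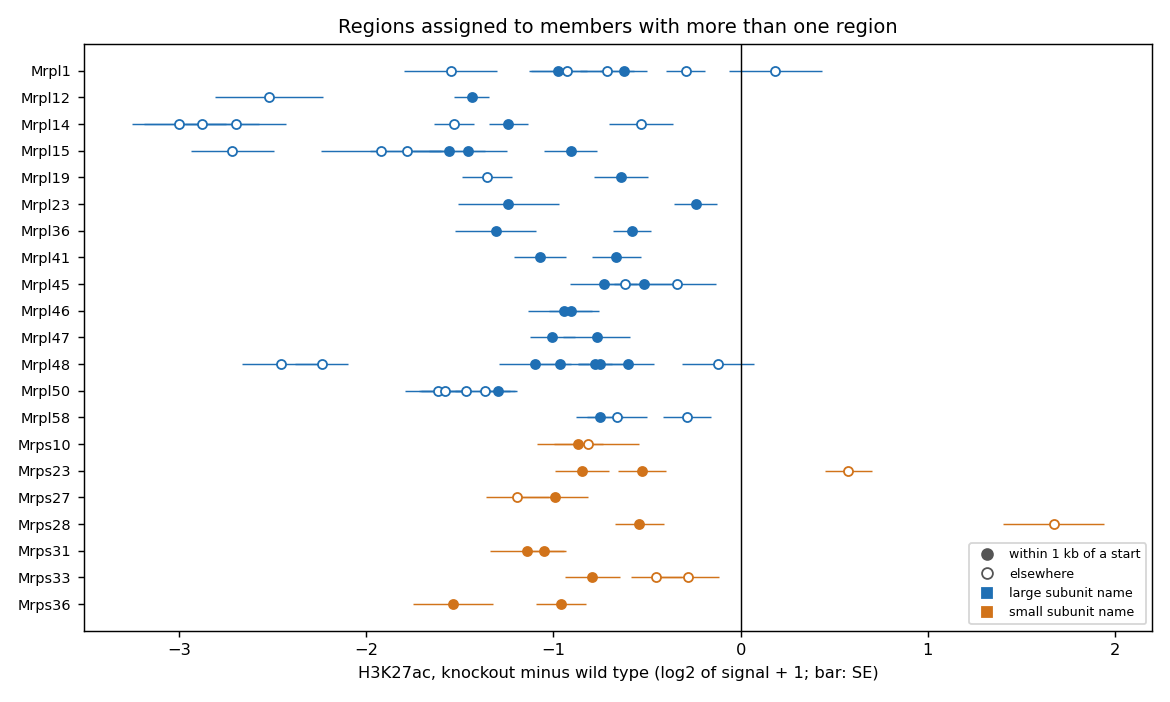
Change of every region assigned to the 21 members with more than 1 region, as knockout minus wild type in log2 of signal plus 1 with the standard error. Filled points are within 1 kb of a start and open points elsewhere; open points reach from -2.998 near Mrpl14 to 1.67 in Mrps28, and all filled points lie below 0.

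Other genes of mitochondrial translation fell at about the rate of the whole table, in which 93.9% of promoter genes fell. The lists are counted in symbols, and some symbols are second names of a listed gene or of a member. A symbol without a region is thus not always a gene without one. Of 9 symbols listed for mitoribosomal proteins and partners with other names, 5 gave a promoter region and all fell, with a median of -0.92. Among them were Aurkaip1 (-1.03, SE 0.11) of the small subunit and Oxa1l (-0.97, SE 0.11), the insertase that receives the nascent chain. Of 36 symbols listed for assembly factors and ribosomal RNA modifiers, 30 gave a promoter region and 29 fell, with a median of -0.73. They included Tfb1m (-1.27, SE 0.14), which methylates the small ribosomal RNA, and Grsf1 (-1.20, SE 0.12) of the RNA granules. Of 22 symbols listed for translation factors 16 gave a promoter region and all fell, with a median of -0.73. The deformylase Pdf (-1.29, SE 0.10) and the initiation factor Mtif3 (-1.20, SE 0.11) were among these. All 14 mitochondrial tRNA synthetases with a promoter region fell, with a median of -0.70, including Ears2 (-0.67, SE 0.087). Of 20 symbols listed for mitochondrial transcription and RNA processing 15 gave a promoter region and all fell, with a median of -0.75. Tfam (-1.05, SE 0.11), which packages mitochondrial DNA, was one. Beside the median of -0.82 for all promoter genes, the first of these lists had a larger median fall and the other 4 smaller ones.

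The nuclear genes of complex I encode subunits that are assembled with proteins made on these ribosomes. They were listed by symbol alone (Ndufa, Ndufb, Ndufc, Ndufs or Ndufv and a digit), and a name need not place a protein in complex I. All 30 promoters fell, against 93.9% of promoter genes, with a median of -0.83 and an SD of 0.22, and Ndufa8 (-1.28, SE 0.10) and Ndufs7 (-1.06, SE 0.10) had the smallest p-values. Against the typical promoter 4 lay lower and 3 higher, beside 9 and 12 of the 66 members and 23.8% and 26.4% of promoter genes. The genes named for proteins of the cytosolic ribosome, which makes the mitochondrial ribosomal proteins themselves, had a median of -0.46. Of their 69 promoters 64 fell and 5 did not pass, and 57 lay above the typical promoter, compared with 12 of the 66 mitochondrial ones and 26.4% of promoter genes. Rps23rg1 (-2.73, SE 0.20), a retrogene that entered the list by its name, and Rpl36 (-0.80, SE 0.098) had the smallest p-values. The difference between the 2 kinds of ribosome was not tested, since genes are not replicates.

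**Figure D5:**
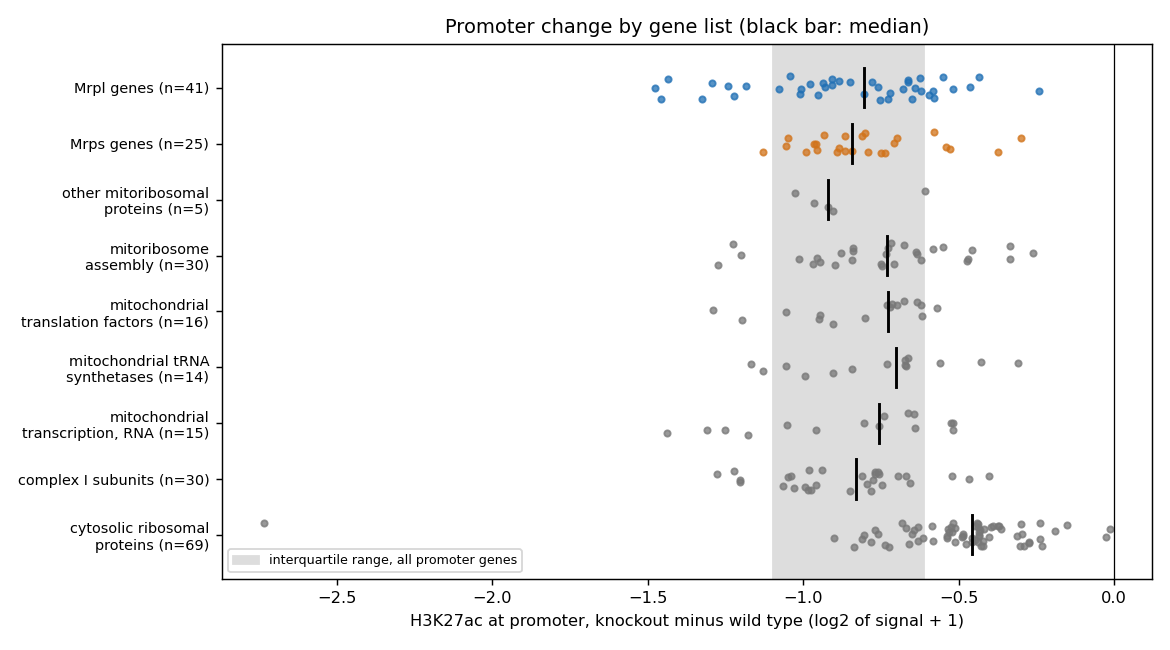
Change in promoter H3K27ac for the 41 Mrpl and 25 Mrps genes and for 7 lists of related genes, in log2 of signal plus 1, with 1 point per gene and a black bar at the median. The grey band is the interquartile range of all promoter genes, from -1.10 to -0.61; the mitochondrial lists centre inside it, and the cytosolic ribosomal proteins, at -0.46, to the right of it.

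Regulators of nuclear genes for mitochondria were mixed. Of 9 listed, 7 had a promoter region, of which 6 fell and Myc rose, beside 93.9% and 0.807% of all promoter genes. Against the typical promoter 3 lay lower and 3 higher, beside 23.8% and 26.4% of promoter genes. Esrra (-1.47, SE 0.10) and Ppargc1a (-1.33, SE 0.091), a nuclear receptor and its coactivator, fell further than the typical promoter, and Myc gained 0.36 (SE 0.078). Nrf1, which encodes the factor of the NRF1 motif, went from 282 to 194, a log2 change of -0.54 (SE 0.10).

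Spg21, Ccnk and Focad were the genes outside the family whose promoter was closest to the members' mean profile over the 6 libraries. The distance, a root mean square of centred log2 values, was 0.034, 0.042 and 0.050. Spg21 held 156, 147 and 144 in wild type and 86.7, 88.8 and 79.6 in knockout, a log2 change of -0.80 (SE 0.13), beside the family's median of -0.83.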

How the data were processed

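H3K27ac ChIP-seq libraries of regenerating liver, 3 per genotype, were read from the 1 deposited table; BWA 0.7.5, MACS, deepTools 3.5.0 and mm10 appear in the submitters' processing notes. Spike-in chromatin was added, per the labels' protocols. How size factors were set was not given in the sources used here. Deposited signal was the read count of a region divided by 1 size factor per library (0.730 to 0.782 in wild type, 1.18 to 1.32 in knockout): 100% of values gave whole reads within 0.01. The authors' deposited log2 fold change and adjusted p-value columns were used only where named. Of 36446 rows, 59 repeats were dropped. limma 3.58.1 (R 4.3.3) with a variance trend was fitted to log2(signal + 1), which understates changes of low regions, over all 36387 regions or 9663 promoter genes, with Benjamini-Hochberg adjustment. edgeR 4.0.16 and DESeq2 1.42.0 on recovered reads were alternatives. The fit was tried on simulated data in which few regions changed, up as often as down. Those data held no near-global fall, so they do not bear on calls made under one. No input libraries entered. The members, the lists, the named genes and the centring were chosen with earlier results of these data known. Named genes were, per subunit, the 4 deepest and 4 smallest falls and the 3 highest levels per kb, all members with several regions, up to 2 genes per list by p-value (1 such gene is not reported here), and the 3 most alike profiles; Mrpl10, Mrpl11, Mrps7, Mrps12, Nrf1 and genes named for a centred call, a motif or a shared start were chosen after their values were seen. Promoters and starts came from RefSeq (GRCm38.p6); coordinates are as deposited. Replicate numbers were not used as pairs in the main fit. Same-numbered deviations correlated at -0.012, -0.0027 and 0.021, and different-numbered ones at -0.021 to 0.023. Values this small cannot show whether libraries were processed in pairs.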

Additional observations from a re-analysis of the deposited data

How the results depend on the processing

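The scale decides most of what can be said. With each library centred on its median promoter gene, 9 member promoters lay lower and 12 higher in place of 66 and 0, and after centring on the median region of each library 20 member regions lay lower and 45 higher in place of 108 and 2. The centred log2 change was positive for Mrpl23 0.63, Mrps18b 0.57, Mrps25 0.49, Mrpl44 0.43, Mrpl16 0.40, Mrpl45 0.35, Mrps23 0.34, Mrps28 0.32, Mrpl13 0.31, Mrpl52 0.29, Mrps16 0.29, Mrpl36 0.28, Mrpl24 0.27, Mrpl55 0.24, Mrpl1 0.24, Mrpl19 0.22, Mrpl3 0.21, Mrpl21 0.20, Mrpl41 0.20, Mrpl54 0.19, Mrps17 0.17, Mrps12 0.16, Mrpl11 0.15, Mrpl10 0.14, Mrps14 0.13, Mrps18a 0.12, Mrpl58 0.11, Mrpl51 0.11, Mrpl48 0.087, Mrps33 0.073, Mrps5 0.064, Mrpl20 0.060, Mrps9 0.054, Mrps15 0.022 and Mrpl30 0.017. The centred counts of 9 and 12 were 5 and 30 with the median of all regions as the centre, 5 and 30 with edgeR's TMM factors, 3 and 19 with DESeq2, and 7 higher at an adjusted p under 0.01. Without the regions in the lowest quartile of signal, 1 member region rose in place of 2, as the intronic region of Mrps28 dropped out. Leaving out each library in turn gave 63 to 66 promoters lower, 102 to 108 regions lower, 7 to 8 centred lower and 8 to 11 centred higher. The large-minus-small difference in median change, 0.038, ran from -0.0077 to 0.10 (without wild-type replicate 3) over those fits. It was -0.047 as a mean over all regions of a gene and -0.057 as a difference of means. Among members with no other coding start listed nearby it was 0.13. With edgeR on recovered reads and the deposited size factors, 65 promoters fell, Mrps25 being lost (adjusted p = 0.0556). The replicate block left 66 promoters and 108 regions lower, 2 regions higher, and 9 and 12 centred; it changed no promoter call on the deposited scale, and neither did pseudocounts of 0.5 and 5. Subunits by structure, the omission of Mrps36 and the edgeR fit with the same centre were added after the data had been seen.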
